A study of Mus musculus with 12 samples.

Results

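GABA-A receptors are chloride channels built from several subunits around a central pore, and they carry most fast inhibition in the brain. Alpha and beta subunits form the GABA binding sites between them, the alpha type sets much of the kinetics and drug response, and the delta subunit marks receptors outside synapses. In the immature hippocampus GABA can still depolarise neurons, and the makeup of subunits is known to shift as the tissue matures. The values below describe transcripts of 7 of these genes, taken by symbol from a counts table of 52634 genes, in dorsal hippocampus of mice at postnatal day 7. They are 4 alpha genes (Gabra2, Gabra3, Gabra4 and Gabra5), 2 beta genes (Gabrb1 and Gabrb2) and the delta gene Gabrd, and 7 of 7 passed the filter on low counts that left 17631 genes for testing.

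The compared groups were SERTPyramid pups labelled female, SERTfl/fl pups labelled female, SERTPyramid pups labelled male and SERTfl/fl pups labelled male, with 3 libraries in each. SERTfl/fl, the control genotype, carries loxP-flanked alleles of Slc6a4, the serotonin transporter gene. SERTPyramid, written SERTPyramid∆ in the sample titles where the delta marks a deletion, removes the transporter gene in pyramidal neurons, and the series title places its expression in those of hippocampal field CA3. The titles spell the control SERTfl/fll and the genotype label SERTfl/fl. The labels name neither the recombinase nor the promoter that drives it. A library came from the tissue of 4 mice combined. Nothing in the labels says whether pools shared litters, so the p-values reflect the variation among these 12 libraries and no more.

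Library totals were 18747249 to 25522347 counts. Slc6a4 was near the detection limit, with 12, 3 and 1 counts in SERTPyramid libraries labelled female and 5, 16 and 9 in their controls. It had 8, 3 and 7 counts in SERTPyramid libraries labelled male and 0, 17 and 12 in their controls, so the groups overlapped. Counts of sex-linked genes went against the labelled sex in 10 of 12 libraries, the exceptions being SERTfl/fl replicate 1 of each labelled sex. For that reason female and male are used here only as labels, and the genotype differences are given again below without those 2 control libraries. CA1 pyramidal markers summed to 694.2 to 784.6 CPM (counts scaled to a library total of 1000000) and dentate granule cell markers to 290.5 to 393.2 CPM, both present in each library. Choroid plexus markers summed to 26.54 to 2472 CPM, and the correlation of a subunit's level with that sum ran from -0.58 (Gabra4) to 0.14 (Gabra2) over 12 libraries. The part of that tissue in the results below was not tested.

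The genes lie on 5 chromosomes of the GRCm38 build. Gabra2 (ENSMUSG00000000560, chromosome 5, 70957597 to 71095849, minus strand), Gabra4 (ENSMUSG00000029211, chromosome 5, 71569749 to 71658308, minus strand) and Gabrb1 (ENSMUSG00000029212, chromosome 5, 71658113 to 72149037, plus strand) sit in one cluster on chromosome 5. Gabra4 and Gabrb1 face away from each other and share 46 exon bases, and the library kit does not mark strand, so reads in those bases cannot be told apart. Gabra3 (ENSMUSG00000031343) is on chromosome X, 72432681 to 72656848, minus strand. Gabra5 (ENSMUSG00000055078) is on chromosome 7, 57407672 to 57510059, minus strand, and shares 148 exon bases with the antisense gene Gm9962. Gabrb2 (ENSMUSG00000007653) is on chromosome 11, 42419757 to 42629028, plus strand, and Gabrd (ENSMUSG00000029054) on chromosome 4, 155384980 to 155398112, minus strand.

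The 250 bases upstream of a RefSeq start (GRCm38.p6) are printed for 4 members, 5′ to 3′ on the gene's own strand. For each gene the first listed window without annotated exon bases is shown. Gabra4 and Gabrb1 had no such window, and Gabrd had no entry. Capitals mark matches on either strand to the TATA box (letters TATAAA), the CCAAT box (letters CCAAT), the GC box (letters GGGCGG) or the cAMP response element (letters TGACGTCA). The windows are chr5:71095850-71096099 (minus strand), chrX:72656920-72657169 (minus strand), chr7:57510060-57510309 (minus strand) and chr11:42420190-42420439 (plus strand), in the order of the lines.
Gabra2: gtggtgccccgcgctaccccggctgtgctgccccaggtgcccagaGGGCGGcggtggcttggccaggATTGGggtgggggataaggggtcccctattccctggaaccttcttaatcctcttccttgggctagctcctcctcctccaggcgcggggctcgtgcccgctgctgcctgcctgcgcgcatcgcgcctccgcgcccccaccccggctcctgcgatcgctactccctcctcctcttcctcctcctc
Gabra3: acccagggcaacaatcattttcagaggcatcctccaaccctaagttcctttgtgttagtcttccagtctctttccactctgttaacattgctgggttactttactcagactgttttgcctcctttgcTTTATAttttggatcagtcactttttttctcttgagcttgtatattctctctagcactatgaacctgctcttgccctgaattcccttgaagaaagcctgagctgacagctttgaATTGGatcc
Gabra5: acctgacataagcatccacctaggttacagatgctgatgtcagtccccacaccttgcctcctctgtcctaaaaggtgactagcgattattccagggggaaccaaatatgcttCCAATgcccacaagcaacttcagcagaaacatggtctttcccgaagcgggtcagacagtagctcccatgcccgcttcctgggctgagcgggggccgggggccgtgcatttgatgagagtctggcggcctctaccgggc
Gabrb2: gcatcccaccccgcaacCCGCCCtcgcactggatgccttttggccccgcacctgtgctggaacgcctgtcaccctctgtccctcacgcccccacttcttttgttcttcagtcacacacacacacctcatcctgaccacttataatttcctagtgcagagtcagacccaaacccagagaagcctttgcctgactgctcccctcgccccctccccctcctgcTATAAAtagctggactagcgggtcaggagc
These promoters differ widely in base composition. The Gabra2 window had 70.0% G and C and 18 CpG dinucleotides, with an observed-to-expected CpG ratio of 0.607. The Gabra3 window had 42.4% G and C and 0 CpG, against a median of 52.4% over 32851 RefSeq promoters. The printed Gabra5 and Gabrb2 windows lay between them, with 56.4% and 58.8% G and C and CpG ratios of 0.455 and 0.441. Windows at other RefSeq starts of Gabrb2 had 54.0% and 36.8% G and C and CpG ratios of 0.607 and 0.529. Neither held the TATA box letters. A window at another Gabra3 start had 39.2% G and C and 0 CpG. A ratio over 0.6 was found in 34.0% of promoters, and the median ratio was 0.373. The TATA box letters stand near the downstream end of the printed Gabrb2 window and, on the other strand, in the middle of the printed Gabra3 window. Of all promoters 12.4% held them. The CCAAT box was present in 33.8% of promoters, the GC box in 32.7% and the cAMP response element in 1.55%, the last in none of the 4 printed windows. These matches are descriptions of letters, not of binding.

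Per length, the alpha genes spanned about an order of magnitude. CPM per kilobase of all annotated exon bases averaged 64.4 ± 1.91 for Gabra5 (SD, n = 12 libraries), the subunit typical of tonic inhibition in hippocampal pyramidal neurons. Gabra2, whose subunit is enriched at synapses on the axon initial segment, averaged 29.8 ± 1.41 CPM per kilobase. Gabra3 and Gabrb2 followed with 17.7 ± 1.35 and 16.8 ± 1.95, and their ranges, 15.8 to 19.9 and 12.4 to 19.0, overlapped. Gabrb1 averaged 10.2 ± 0.868, Gabra4, a partner of delta in extrasynaptic receptors, 6.89 ± 0.287, and Gabrd 2.53 ± 0.127 CPM per kilobase. The order depended on the length used. Scaled to coding bases, Gabra2 led with 168 ± 7.96, ahead of Gabra5 with 138 ± 4.10, Gabrb1 with 99.5 ± 8.45 and Gabrb2 with 69.7 ± 8.07 CPM per kilobase. On that scale Gabra3 (43.6 ± 3.32), Gabra4 (24.2 ± 1.01) and Gabrd (5.405 ± 0.270) closed the order, and the lowest and highest libraries of neighbouring members did not overlap. Gabrb1 has 13838 annotated exon bases for 1422 coding bases, the longest exon sequence of the 7.

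Gabra2 was the member with the clearest separation of genotypes, in libraries labelled female. It had 215.2, 215.3 and 217 CPM in SERTPyramid libraries labelled female, against 238.2, 238.6 and 239.3 CPM in SERTfl/fl libraries labelled female. The 3 SERTPyramid values lay below the 3 control values, with a gap wider than the range within either group. Such non-overlap downward was found for 6.99% of the 17631 genes tested in that comparison. The fitted log2 fold change was -0.16 ± 0.05 (SE), a difference of -10.6% with a 95% interval of -17.1% to -3.6% (edgeR quasi-likelihood test, unadjusted p = 0.00586, adjusted p = 0.530). Gabra2 therefore did not pass the threshold of 0.05 for adjusted p, and no gene did (0 of 17631, 0% called). At an unadjusted p under 0.05, 8.04% of genes were called, and Gabra2 was the only member among them. DESeq2 called 1 gene and limma voom 0 in the same comparison, none of them a member. In bulk tissue, fewer cells that express a subunit and less of its RNA per cell cannot be told apart.

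The other alpha genes overlapped between genotypes in libraries labelled female. Gabra3 had 65.76, 69.36 and 74.19 CPM in SERTPyramid libraries labelled female and 63.71, 74.13 and 75.29 CPM in SERTfl/fl libraries labelled female. Gabra4 had 41.22, 39.74 and 44.4 CPM in SERTPyramid libraries, against 43.04, 43.38 and 43.24 CPM in controls. Gabra5 had 194.7, 189.4 and 198.2 CPM in SERTPyramid libraries, against 190.7, 199.9 and 199.5 CPM in controls. SERTPyramid libraries lay on both sides of the control range for Gabra4 and within it for Gabra3. The log2 fold changes were -0.04 ± 0.08 for Gabra3, -0.06 ± 0.06 for Gabra4 and -0.04 ± 0.04 for Gabra5 (adjusted p from edgeR 0.825 to 0.922). The 95% interval for Gabra5 ran from -8.52% to 4.06%.

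The beta genes labelled female both had lower group means in SERTPyramid. Gabrb1 had 140, 141.5 and 141.2 CPM in SERTPyramid libraries labelled female and 155.7, 152.1 and 150.8 CPM in SERTfl/fl libraries labelled female. These groups did not overlap, as with Gabra2 and as for 6.99% of genes tested (downward), but the pooled spread of this gene over 12 libraries was larger. The log2 fold change of Gabrb1 was -0.13 ± 0.09 (edgeR adjusted p = 0.737). Gabrb2, which encodes a beta subunit common in mature synaptic receptors, had 96.21, 110.6 and 110.9 CPM in SERTPyramid libraries, against 109.1, 115.9 and 120.7 CPM in controls. Its groups overlapped, with a log2 fold change of -0.14 ± 0.14 (adjusted p = 0.846). Gabrd had 7.14, 7.786 and 7.364 CPM in SERTPyramid libraries and 7.383, 6.805 and 7.586 CPM in controls, and differed by 0.02 ± 0.09 on the log2 scale (adjusted p = 0.982). With 130 to 182 counts per library, the counting error of Gabrd alone was up to 8.77%.

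**Figure D1:**
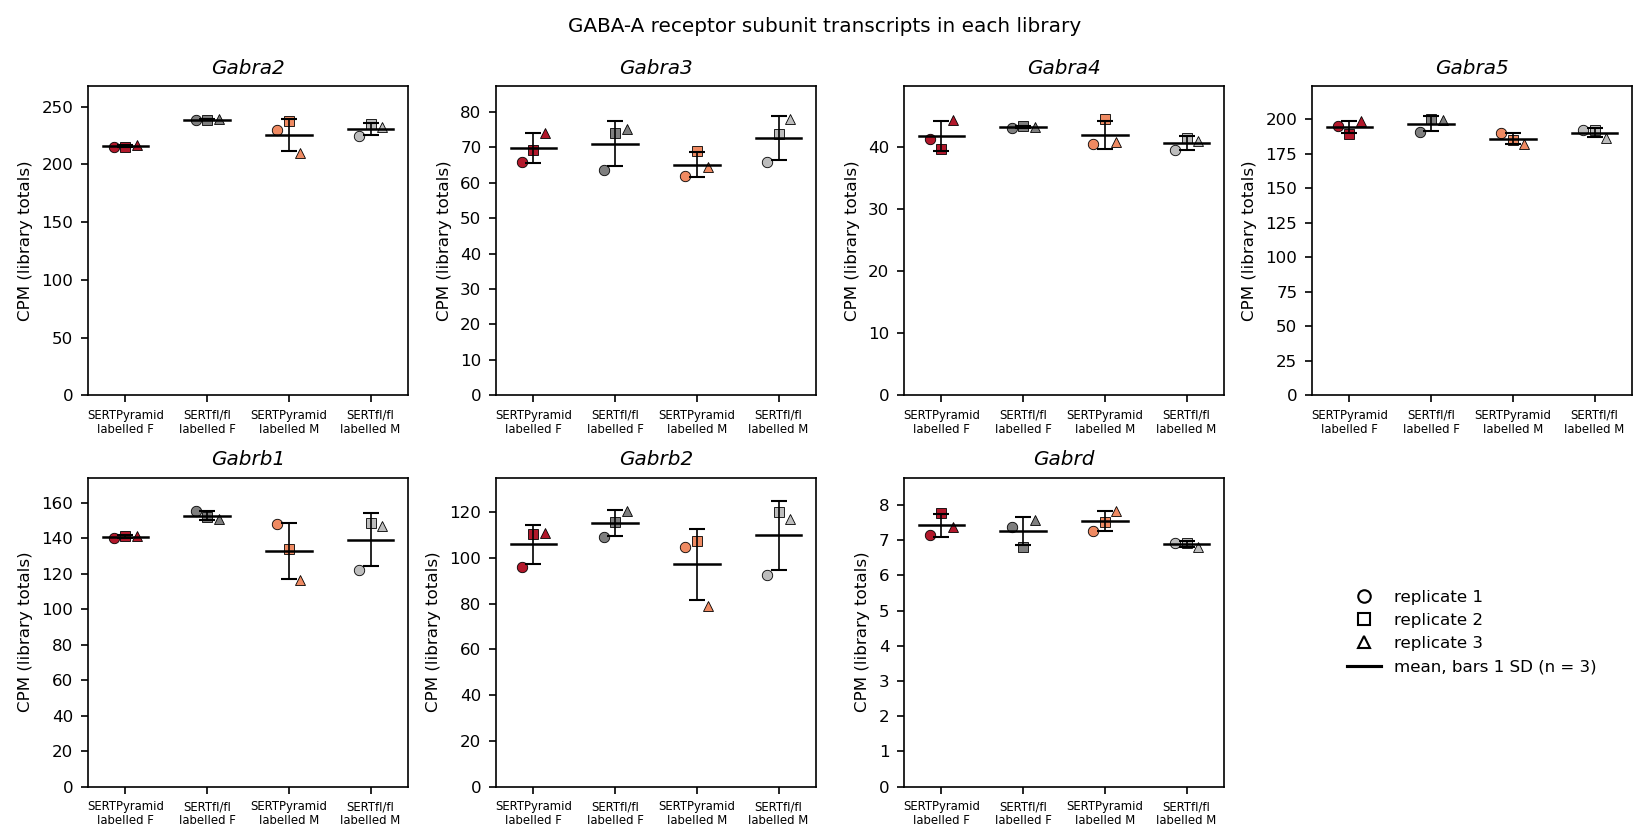
CPM of each subunit gene in the 12 libraries (vertical axes start at 0), by genotype and labelled sex, with replicates as symbols and the group mean and SD (n = 3) as lines. Gabra2 and Gabrb1 in SERTPyramid libraries labelled female lie below their controls without overlap, as do 6.99% of genes tested. Libraries labelled male spread most for Gabrb1 and Gabrb2.

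A fit of the 6 libraries labelled female alone, which estimates its spread from those libraries only, called Gabra2 lower (log2 fold change -0.16 ± 0.04, adjusted p = 0.0173, edgeR). In that fit 415 of 17108 genes (2.43%) passed, and 0.777% passed downward. Gabrb1 had -0.13 ± 0.04 and adjusted p = 0.0678. The Gabra2 call was lost without control replicate 2 (adjusted p = 0.0820), without control replicate 3 (0.0671) and without SERTPyramid replicate 2 (0.117), and it was kept in the other 3 fits that left out 1 library (adjusted p 0.0147 to 0.0382). Libraries also differed in how their genes varied with base composition. For this measure each gene's log2 level was taken as its deviation from its own mean over the 12 libraries. The median deviation of genes with at least 55% G and C, minus that of genes under 45%, was then taken. It was -0.0016, 0.0595 and 0.0592 in SERTPyramid libraries labelled female, against -0.0778, -0.0424 and -0.0768 in SERTfl/fl libraries labelled female. These groups did not overlap, and Gabra2 RNA has 38.4% G and C, below the median of 49.8% over genes tested. With offsets that remove each library's trend with GC content, Gabra2 had -0.09 and adjusted p = 0.244 in the labelled-female libraries alone, and the call was lost. With offsets for gene length instead, the values were -0.15 and 0.0330.

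Summed markers of dentate granule cells, oligodendrocyte precursors and red blood cells also separated the genotypes in libraries labelled female. Sums of CA1, CA3, pan-neuronal, astrocyte, myelinating oligodendrocyte, microglia, endothelial, choroid plexus and thalamus markers overlapped. For single genes, downward non-overlap was found for 6.99% of genes tested in that comparison, and no such share was computed for summed markers. The summed level of dentate granule cell markers was 314.1, 308.7 and 290.5 CPM in SERTPyramid libraries labelled female, against 393.2, 325.9 and 341.6 CPM in SERTfl/fl libraries labelled female, without overlap. The 5 of 5 markers lay below 0 in log2 fold change (median -0.18, none at 0 counts), as did 50.1% of all genes, and 0 passed the adjusted threshold. At an unadjusted p under 0.05 (edgeR), 4 of the 5 were lower, against 8.04% of all genes in either direction. In the interaction of genotype and labelled sex 5 of the 5 reached that level, against 4.45% of all genes. In libraries labelled male the sums were 350.2, 328.3 and 326.3 CPM in SERTPyramid and 298.7, 340.5 and 308 CPM in controls, and 5 of 5 fold changes lay above 0 (median 0.14), while 49.5% of all genes lay below 0. Over 12 libraries the summed level correlated with Gabra2 at r = 0.48 and with Gabrb1 at r = 0.45. Interneuron markers summed to 520.4, 556.4 and 545.2 CPM in SERTPyramid libraries labelled female, against 498.1, 535 and 503.6 CPM in controls, which overlapped. Markers of oligodendrocyte precursors summed to 336.8, 329.1 and 324.7 CPM in SERTPyramid libraries labelled female, against 307.3, 310 and 314 CPM in controls, without overlap (2 of 3 genes above 0, none at 0 counts). Red blood cell markers summed to 44.5, 43.96 and 36.1 CPM in SERTPyramid libraries, against 48.21, 49.29 and 54.68 CPM in controls, also without overlap (0 of 3 above 0, none at 0 counts). Of all genes 50.1% lay below 0. In each of these 2 lists 2 genes had an unadjusted p under 0.05 (edgeR), against 8.04% of all genes in either direction, and 0 passed the adjusted threshold. Their sums correlated with Gabra2 at -0.02 and 0.24 over 12 libraries. The part of these cell types in the subunit values was not tested.

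In libraries labelled male no member was called either (0 of 17631 genes, 0% called, with 0 by DESeq2 and by limma voom). At an unadjusted p under 0.05, 3.16% of genes were called. Gabra3 was the only member among them, with -0.17 ± 0.08 (edgeR unadjusted p = 0.0485, adjusted p = 0.999). It had 62.07, 68.96 and 64.5 CPM in SERTPyramid libraries labelled male, against 65.77, 73.94 and 78.01 CPM in SERTfl/fl libraries labelled male, with overlap. Gabra2 had 229.7, 237.3 and 210.3 CPM in SERTPyramid libraries and 224.7, 235.1 and 232.5 CPM in controls, where the highest and the lowest library both belonged to SERTPyramid. Pan-neuronal markers, whose sum correlated with Gabra3 at r = 0.72 over 12 libraries, summed to 3251, 3506 and 3399 CPM in SERTPyramid libraries labelled male, against 3579, 3497 and 3517 CPM in controls, and their part in the Gabra3 values was not tested. The log2 fold change of Gabra2 was -0.04 ± 0.05 (adjusted p = 0.999, edgeR). Gabra4 (0.03 ± 0.06) and Gabra5 (-0.05 ± 0.04) also overlapped, with 40.45 to 44.5 and 181.9 to 189.8 CPM in SERTPyramid libraries, against 39.47 to 41.49 and 186.5 to 192 CPM in controls.

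The beta genes labelled male varied most within groups. Gabrb1 had 148.2, 134.1 and 116.4 CPM in SERTPyramid libraries labelled male, against 122.3, 148.7 and 147.1 CPM in SERTfl/fl libraries labelled male. Gabrb2 had 104.9, 107.5 and 79.06 CPM in SERTPyramid libraries and 92.44, 120.2 and 117.1 CPM in controls. SERTPyramid replicate 3 was the lowest library for both genes, and control replicate 1 the next lowest. The log2 fold changes were -0.08 ± 0.09 for Gabrb1 and -0.19 ± 0.14 for Gabrb2 (adjusted p = 0.999 each). Without SERTPyramid replicate 3, Gabrb1 had 0.02 and Gabrb2 -0.05. Gabrd was the only member without overlap here, with 7.262, 7.524 and 7.841 CPM in SERTPyramid libraries, against 6.934, 6.935 and 6.798 CPM in controls. Upward non-overlap was found for 4.09% of genes in this comparison, and the Gabrd fold change of 0.12 ± 0.09 on the log2 scale did not pass (adjusted p = 0.999, edgeR). CA3 pyramidal markers were also without overlap here. They summed to 388.7, 395.5 and 390.6 CPM in SERTPyramid libraries labelled male, against 379.9, 375.7 and 380.4 CPM in controls. Of these markers 4 of 4 lay above 0, while 49.5% of all genes lay below 0, and none was called. In libraries labelled female 4 of 4 lay below 0, as did 50.1% of all genes. Their sum correlated with Gabrd at r = 0.09 over 12 libraries, and their part in the Gabrd values was not tested.

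Averaged over labelled sexes, 6 of 7 members lay below 0 (median log2 fold change -0.10), while 50.7% of all genes tested did and the median of all genes was -0.0012. Again 0 genes were called (0%), with 0 by DESeq2 and by limma voom, and 6.49% had an unadjusted p under 0.05 in edgeR, 1 member among them. In limma voom 4 of 7 members (Gabra2, Gabra3, Gabrb1 and Gabrb2) had an unadjusted p under 0.05, as did 10.6% of all genes, and their adjusted p was 0.341 to 0.458. Gabra2 had -0.10 ± 0.04 (unadjusted p = 0.0117, adjusted p = 0.756), Gabra3 -0.11 ± 0.06, Gabrb1 -0.11 ± 0.06 and Gabrb2 -0.17 ± 0.10. Gabra5 had -0.04 ± 0.03 and Gabra4 -0.02 ± 0.04, and Gabrd lay above 0 with 0.07 ± 0.07. Without control replicate 1 of both labelled sexes, the mean difference was -0.11 for Gabra2, -0.17 for Gabra3, -0.14 for Gabrb1 and -0.24 for Gabrb2, none past the threshold (adjusted p 0.494 to 0.535). For the other 3 genes that mean was -0.03 for Gabra4, -0.05 for Gabra5 and 0.08 for Gabrd. Labelled female, the same fit gave -0.16 for Gabra2, -0.11 for Gabra3, -0.06 for Gabra4, -0.05 for Gabra5, -0.12 for Gabrb1, -0.17 for Gabrb2 and 0.03 for Gabrd (adjusted p 0.756 to 0.983). Labelled male, it gave -0.07 for Gabra2, -0.24 for Gabra3, 0.01 for Gabra4, -0.04 for Gabra5, -0.17 for Gabrb1, -0.30 for Gabrb2 and 0.12 for Gabrd (adjusted p 0.798 to 0.987). The genotype difference of no member was shown to depend on labelled sex. The interaction was -0.12 ± 0.07 for Gabra2 and 0.13 ± 0.11 for Gabra3, and between -0.10 and 0.05 for the other 5 (adjusted p = 0.999 for the 7 genes). Over all genes the interaction called 0 (0%), with 4.45% at an unadjusted p under 0.05, and DESeq2 called 1 gene and limma voom 0.

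**Figure D2:**
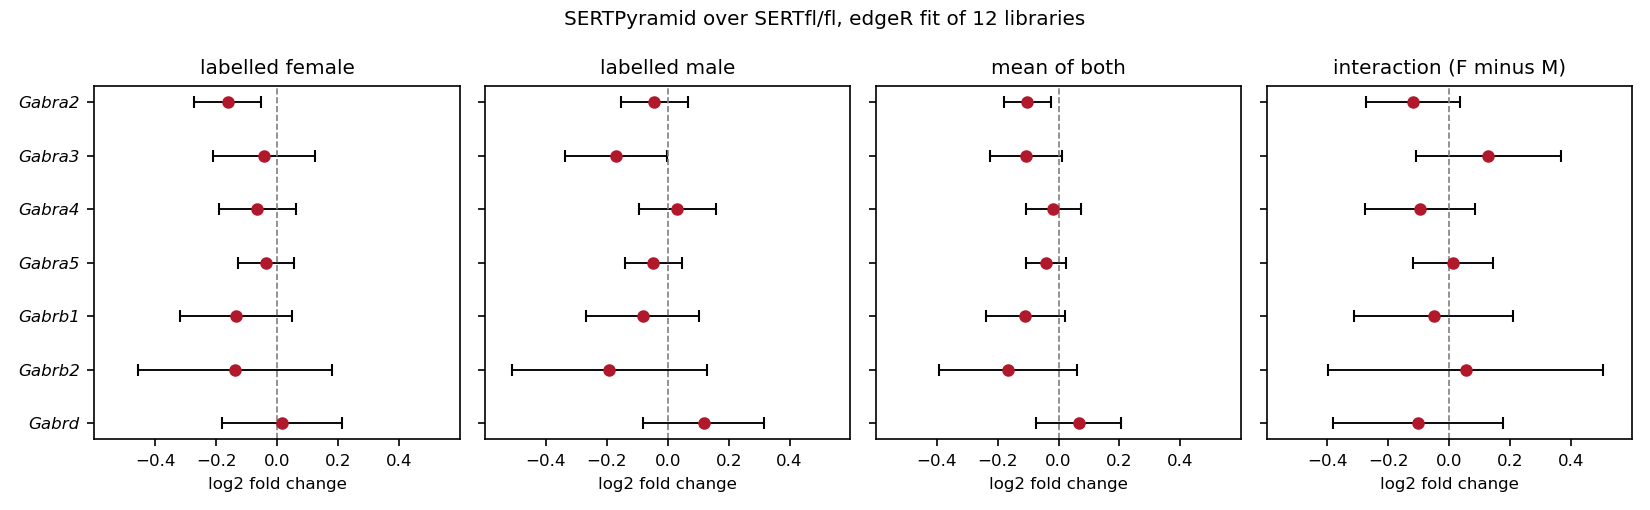
Log2 fold change of SERTPyramid over SERTfl/fl for each subunit gene with its 95% interval, in libraries labelled female, in libraries labelled male, as their mean, and as their difference (edgeR, 12 libraries). Intervals that exclude 0 before adjustment are those of Gabra2 (labelled female and mean) and Gabra3 (labelled male), and Gabrb2 has the widest intervals.

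Between the labelled sexes no member passed the threshold. The log2 difference, labelled female over labelled male, ran from -0.01 ± 0.04 for Gabra2 to 0.11 ± 0.06 for Gabrb1 (edgeR adjusted p 0.614 to 0.964). The adjusted threshold was passed by 0 genes in edgeR (0%), 19 in DESeq2 and 1 in limma voom, and 9.01% had an edgeR p under 0.05 before adjustment. Gabra3, the X-linked member, differed by 0.03 ± 0.06. Counts of sex-linked genes went against the label in 10 of 12 libraries, so these values compare labels and do not measure a difference of sex.

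Shares within a class describe the mix of subunit transcripts apart from its total. Scaled to exon length, Gabra5 made up 54.2% ± 1.05 of the 4 alpha genes (SD, n = 12), Gabra2 25.1% ± 0.876, Gabra3 14.9% ± 0.862 and Gabra4 5.80% ± 0.202. Gabrb2 made up 62.1% and Gabrb1 37.9% of the 2 beta genes (SD 1.54 points, n = 12). These 2 are only part of their class. Of all 3 beta genes in the counts, Gabrb2 made up 21.1% and Gabrb1 12.8%. Of all 6 alpha genes, Gabra5 made up 47.65% and Gabra2 22.0%. In counts without length scaling the largest alpha share was that of Gabra2, 42.9% ± 1.13 against 36.1% ± 0.968 for Gabra5, and the larger beta share that of Gabrb1, 57.0% ± 1.60. The order among these members of a class therefore rests on the length correction.

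In libraries labelled female the shares of Gabra2 and Gabra5 did not overlap between genotypes. The Gabra2 share was 24.04%, 24.28% and 23.42% in SERTPyramid libraries labelled female, against 26.29%, 25.09% and 25.12% in SERTfl/fl libraries labelled female. The Gabra5 share was 55.88%, 54.87% and 54.96% in SERTPyramid libraries, against 54.06%, 54.0% and 53.79% in controls. The Gabra2 share was 1.59 points lower and the Gabra5 share 1.29 points higher in SERTPyramid (exact two-sided permutation p = 0.1 each, the smallest that 3 against 3 libraries allow). Shares of a class have a fixed total, so these 2 differences are not separate results. Gabra5 itself averaged 194.1 CPM in SERTPyramid and 196.7 CPM in controls. Gabra2 RNA has 38.4% G and C and Gabra5 RNA 47.1%, and the part of the GC trend in the shares was not tested. In libraries labelled male the Gabra2 share was 25.84%, 26.29% and 24.61% in SERTPyramid, against 25.09%, 25.44% and 25.42% in controls, with overlap (0.262 points higher, exact permutation p = 0.7). Labelled male, the alpha share that differed by the most points was that of Gabra3, 14.4% ± 0.693 in SERTPyramid and 15.5% ± 1.15 in controls (SD, n = 3 each), -1.10 points with overlap (exact permutation p = 0.3). The Gabra4 share was the alpha share without overlap labelled male, 5.715%, 6.191% and 6.009% in SERTPyramid and 5.536%, 5.639% and 5.628% in controls (exact permutation p = 0.1).

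Over both labelled sexes no share passed. With genotype permuted within labelled sex (400 arrangements, smallest possible p 0.005), the mean difference of SERTPyramid minus SERTfl/fl was -0.663 points for Gabra2 (exact permutation p = 0.165) and 0.879 points for Gabra5 (p = 0.135). The p-values adjusted over the 5 shares tested were 0.275 for Gabra2, Gabra4 and Gabra5, 0.406 for Gabrb1 and 0.460 for Gabra3, all by exact permutation. Gabra3 differed by -0.408 points, Gabra4 by 0.191 points and Gabrb1 by 0.973 points. Without control replicate 1 of both labelled sexes the differences were -0.523 points for Gabra2, -0.971 for Gabra3, 0.217 for Gabra4, 1.28 for Gabra5 and 1.63 for Gabrb1 (adjusted exact permutation p 0.167 to 0.27). The mix of the 2 beta members overlapped in both labelled sexes. The Gabrb1 share averaged 38.0% ± 1.80 in SERTPyramid and 37.9% ± 1.59 in SERTfl/fl labelled female, and 38.7% ± 2.03 in SERTPyramid and 36.9% ± 0.818 in SERTfl/fl labelled male (SD, n = 3 each). Measured against all genes of the beta class in the table, the Gabrb1 difference turned to -0.036 points.

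**Figure D3:**
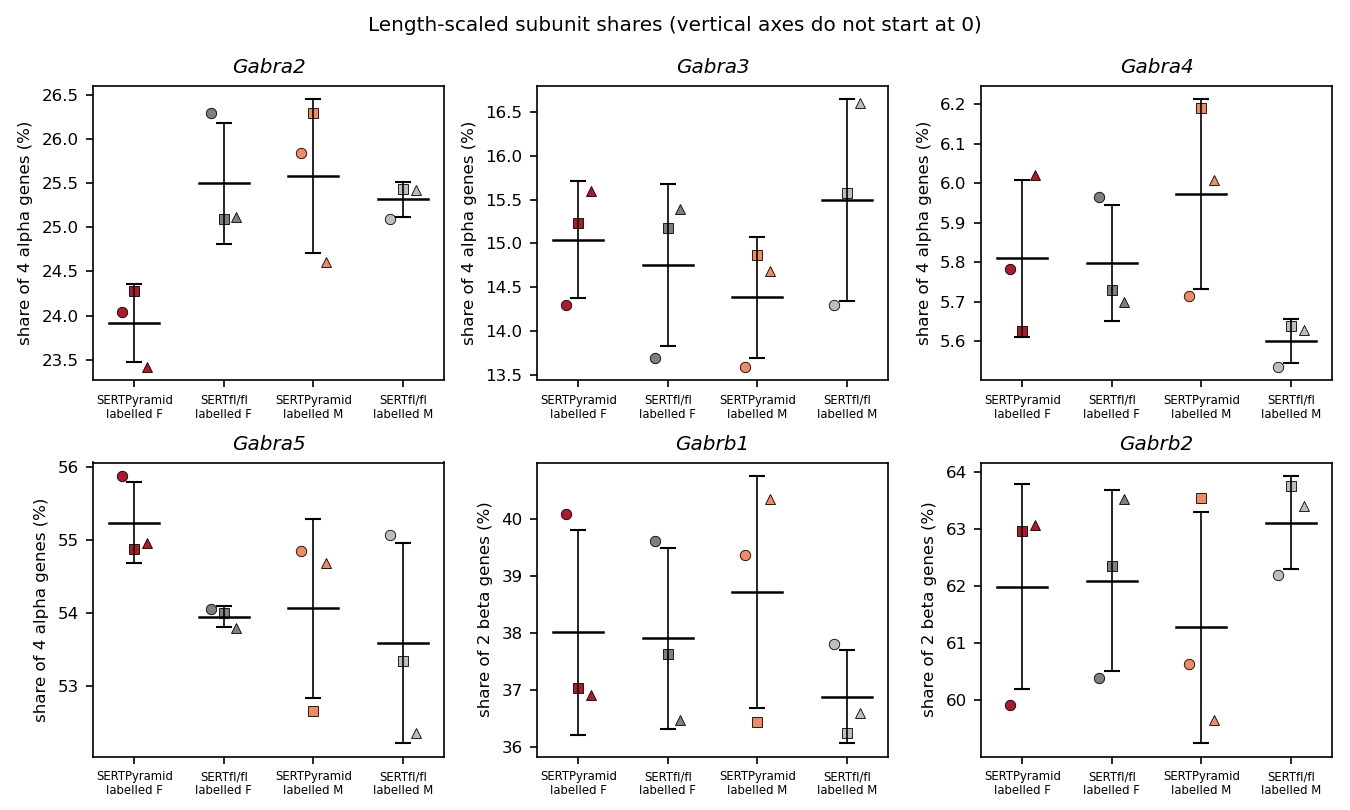
Length-scaled share of each gene among the 4 alpha or the 2 beta genes, in percent, by genotype and labelled sex, with the group mean and SD (n = 3); vertical axes do not start at 0. The Gabra2 share is lower and the Gabra5 share higher in SERTPyramid libraries labelled female without overlap, by 1.59 and 1.29 points. Shares within a class have a fixed total, so these are not separate differences.

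Across the 12 libraries, whatever the genotype, Gabrb1 and Gabrb2 varied together (Pearson r of log2 CPM 0.89, and 0.87 for deviations from group means). Gabra2 followed both, with r = 0.75 with Gabrb2 and 0.69 with Gabrb1. Gabra4 and Gabrb1, which face away from each other with RefSeq starts 387 bases apart, had r = 0.47, below several more distant pairs. Gabrd stood apart, with r from -0.30 to 0.17 with the other 6. These correlations describe 12 libraries that share their depth and composition trends, and carry no p. The within-group SD on the log2 scale was 0.188 for Gabrb2, larger than in 98.3% of genes of like level, 0.127 for Gabrb1 (92.0%) and 0.119 for Gabra3 (90.4%). Gabra5 varied less than most, with 0.0378 (larger than in 11.5%), and Gabrd with 0.0587 (0.694%). At 130 to 182 counts Gabrd has a counting error of up to 8.77%, so its low SD does not show a tightly held level.

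The beta genes also followed a trend that ran over many genes. Each gene's log2 level was again taken as its deviation from its own mean over the 12 libraries. The median deviation of genes with at least 8000 exon bases, minus that of genes under 3000, formed the length measure. It was 0.0519, -0.0265 and -0.1488 in SERTPyramid libraries labelled male, against -0.0972, 0.0761 and 0.0212 in SERTfl/fl libraries labelled male. The 2 lowest libraries are the same ones in which Gabrb1 and Gabrb2 were lowest. Over 12 libraries this measure correlated with Gabrb1 at r = 0.91, with Gabrb2 at 0.76, with Gabra2 at 0.54 and with Gabrd at -0.22. The GC measure correlated with Gabrb1 at -0.79, with Gabra2 at -0.69 and with Gabrb2 at -0.58. With GC offsets in the 12-library fit, the labelled-female log2 fold change of Gabra2 was -0.09 ± 0.05 and that of Gabrb1 -0.08 ± 0.07. With length offsets they were -0.15 and -0.11.

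**Figure D4:**
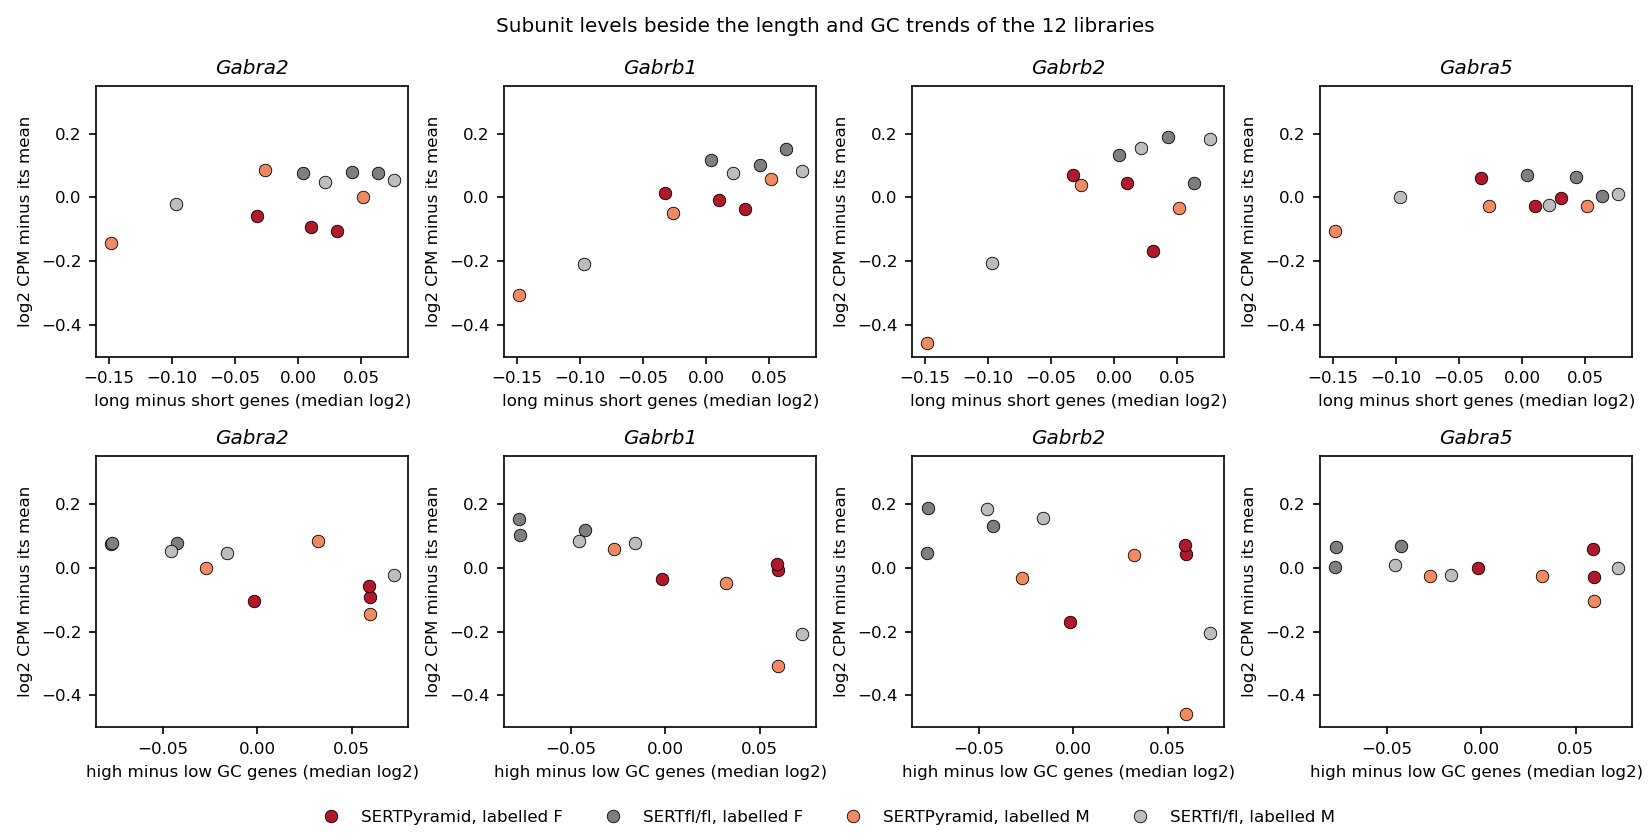
Log2 CPM of Gabra2, Gabrb1, Gabrb2 and Gabra5 minus each gene's mean (vertical axes), against the length measure (upper row) and the GC measure (lower row) of each of the 12 libraries, coloured by genotype and labelled sex. Gabrb1 follows the length measure most closely (r = 0.91), and SERTPyramid libraries labelled female lie to the right of their controls on the GC measure.

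Genes whose pattern over the 12 libraries was most like that of a member were taken as the 3 highest Pearson correlations among 12758 genes with a mean log2 CPM of at least 1, as a description of libraries that share the trends above. For Gabrb1 they were Grm5 (r = 0.976), a metabotropic glutamate receptor, Man1a2 (0.974), a mannosidase, and Synj1 (0.969), a phosphatase of vesicle recycling. For Gabrb2 they included Dlg2 (0.975), a synaptic scaffold, and Hivep2 (0.967), a zinc finger factor. Gabra2 was matched by Xk (0.959), Manea (0.933) and Rnf130 (0.929), and Gabra3 by Slc17a6 (0.953), the vesicular glutamate transporter VGLUT2, Ntm (0.943) and Adgra1 (0.937). Matches were weaker for Gabra4, with Exoc6 (0.925), Glrb (0.895), the glycine receptor beta subunit, and Coro1c (0.885), and for Gabra5, with Fbxo34 (0.907), Agtpbp1 (0.888) and Erc2 (0.885), an active zone protein. Gabrd had the weakest, Dus2 (0.884), Mettl18 (0.860) and Nudcd2 (0.842).

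Of 12 further GABA-A and GABA-rho subunit genes, 6 passed the filter on low counts. In the mean genotype difference 1 of the 6 lay above 0 and 5 below (median log2 fold change -0.07), while 50.7% of all genes lay below 0. None of the 6 was called. At an unadjusted p under 0.05 (edgeR) 2 of the 6 were lower, neither of them named below, against 6.49% of all genes in either direction. Gabrg3, encoding a gamma subunit, averaged 37.9 CPM over libraries and had a log2 fold change of -0.12 ± 0.07 (edgeR adjusted p = 0.765). Gabrg1 had -0.06 ± 0.08 at 17.9 CPM and Gabrq, the theta subunit, 0.14 ± 0.16 at 2.28 CPM. Gabra6, the alpha subunit typical of cerebellar granule cells, reached at most 1 count in any library. Gabrp, Gabrr1, Gabrr2, Gabrr3 and Gabre stayed at or below 18 counts.

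Of 21 genes for assembly, trafficking and anchoring of the receptor, 21 were tested, and in the mean genotype difference 2 lay above 0 and 19 below with a median log2 fold change of -0.02. Of all genes 50.7% lay below 0. None of the 21 was called, and 1 in each direction had an unadjusted p under 0.05, against 6.49% of all genes in either direction. Gphn, encoding the scaffold gephyrin that holds receptors at inhibitory synapses, had -0.07 ± 0.03 (unadjusted p = 0.0312, adjusted p = 0.756, edgeR). Hap1, an adaptor in receptor recycling, had 0.09 ± 0.04 (unadjusted p = 0.0389, adjusted p = 0.756). Plcl2, of the PRIP family that binds receptor and phosphatases, had -0.09 ± 0.04 and Ubqln1, which stabilises receptor subunits, -0.06 ± 0.03, both with adjusted p = 0.756.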

How the data were processed

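RNA from dorsal hippocampus was extracted with Trizol, and mRNA libraries were made with the TruSeq RNA v2 kit, per the labels' protocols. The values deposited are whole-number counts for Ensembl genes, not normalized. The build is mm10, per the submitters' processing notes. Aligner, counter settings and annotation are not named in these sources. It has 52634 genes, 0 entries that name no gene and 0 columns without a sample. Symbols were found for 52401 identifiers, and 52487 matched GENCODE release M21, the source of coordinates, lengths and GC content. A count of 0 allows up to 3 counts, which is 0.118 to 0.160 CPM, for counting error only. Replicates of a group differed by more than sampling noise (chi-square over degrees of freedom 2.52 to 13.8).

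The 12 libraries were fitted in 4 groups with edgeR 4.0.16 in R 4.3.3 (filterByExpr, TMM, robust quasi-likelihood F test), and p-values were adjusted by Benjamini-Hochberg over 17631 genes and called below 0.05. Standard errors were derived from the fold change and its F value. CPM values use library totals. Shares were tested by exact permutation of genotype within labelled sex. Members and lists were chosen with earlier results of these data known. The 7 members are named, with the 3 most similar genes of each and up to 4 genes of a list with the smallest p in the mean genotype difference. Predicted gene models were passed over. The genes Gabrg1, Gabrq and those that did not pass the filter were named after their values were seen. Some genes that these rules take are not reported here.

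Alternatives were RLE scaling, DESeq2 1.42.0, a replicate block, genes kept at 1 CPM in 6 libraries or kept without any filter, limma 3.58.1 voom with quality weights, the libraries of 1 labelled sex alone, other lengths and denominators for shares, and leaving out each library and control replicate 1 of both labelled sexes. GC offsets, length offsets, leaving out libraries in the fits of 1 labelled sex and shares of whole classes were added after seeing the data. The fits were tested on simulated data. Upstream sequences came from RefSeq tables of GRCm38.p6, where 6 of 7 members had an entry.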

Additional observations from a re-analysis of the deposited data

How the results depend on the processing

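In the fits of 12 libraries no alternative brought a member past the threshold, and 24 of 735 log2 fold changes of members changed sign. Of 85 shares under alternatives, 1 changed sign and 0 passed. Over all genes, DESeq2 called 1 gene for genotype labelled female, 1 for the interaction and 19 for labelled sex. Without a filter on low counts the numbers were 103 labelled female, 5 labelled male, 66 for the mean, 14 for the interaction and 194 for labelled sex, and no member was among them. The labelled-female libraries alone gave 415 genes, 276 with GC offsets and 427 with length offsets, with 1 member (Gabra2), 0 and 1. For labelled sex, the replicate block, voom and length offsets each called 1 gene. Leaving out 1 library gave 0 to 464 genes labelled female (0 to 2 in the fits of 12 libraries, 136 to 464 alone), with 0 to 1 members, 0 to 144 for the mean and 0 to 73 for labelled sex. The 2 and the 144 came without SERTPyramid replicate 2 labelled male, the 73 without SERTPyramid replicate 1 labelled male, and the 136 without SERTPyramid replicate 2 labelled female. The cause was not tested.

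Signs turned with GC offsets for Gabra3 (0.002, and 0.0018 alone) and Gabrd (-0.0201, and -0.0187 alone) labelled female and for Gabra4 in the mean (0.0116), with voom for Gabrb1 in the interaction (0.0119), and for the Gabrb1 share of the whole beta class (-0.036 points). Leaving out control replicate 1 of both sexes at once gave 13 genes for labelled sex and an interaction of -0.0104 for Gabra5 and 0.0521 for Gabrb1. The ranges that follow leave out 1 library. Within a labelled sex they pool the fits of 12 libraries with the fits of that labelled sex alone. Labelled female, the log2 fold change ran from -0.1161 to 0.0107 for Gabra3 and from -0.0284 to 0.0561 for Gabrd. Labelled male it ran from -0.0985 to 0.018 for Gabra2, from -0.03 to 0.0639 for Gabra4 and from -0.1692 to 0.017 for Gabrb1. The mean ran from -0.0447 to 0.0019 for Gabra4. The interaction ran from -0.0137 to 0.0305 for Gabra5, from -0.1489 to 0.0376 for Gabrb1 and from -0.0838 to 0.1668 for Gabrb2. The labelled sex difference ran from -0.0393 to 0.017 for Gabra2 and from -0.0026 to 0.0673 for Gabra3.

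To look for pairing, each gene's deviation from its group mean (log2 CPM) was correlated between same-numbered libraries of the 2 genotypes. These deviations correlated at 0.072, -0.008 and 0.043 labelled female and at 0.058, 0.018 and -0.142 labelled male, so the numbers were not taken as pairs. With the replicate block, Gabra2 labelled female had -0.16 (adjusted p = 0.526, edgeR), and no member was called. With 3 libraries a group, differences of about 10% in a member did not pass in the 12-library fit, and Gabrd is further limited by its low counts.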
